A study of Mus musculus with 2 samples.

Results

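The 10 genes described here are FGF ligands, an FGF receptor and genes that FGF signaling is known to switch on: the ligands Fgf9, Fgf16 and Fgf18, the receptor Fgfr3, and the targets Spry1, Spry2, Spry4, Dusp6, Etv4 and Etv5. They were chosen by gene symbol out of the 27179 genes of the count tables, and Fgf9 was selected on its higher level in the Ucp1-KO library of these same data, so its difference is a description. All 10 were found in both tables, and all 10 had a mean normalized count of at least 10, as did 15212 of the genes in all. RNA was sequenced from iBAT, the interscapular depot of brown adipose tissue, whose mitochondria turn fuel into heat. The mice were untreated, 20 days old and C57BL/6N (Bl6N in the sample labels). One library came from wild-type animals and one from Ucp1 knockout (Δ/Δ) animals (Ucp1-KO), in which the gene of the mitochondrial uncoupling protein of brown fat was targeted. Each library was made from tissue of 3 pooled animals, described as male. The sex-linked counts below go against this for wild-type, and for Ucp1-KO they go against a pool of males only. There was 1 library per genotype, so no test between genotypes, no standard deviation and no p-value can be given, and every interval covers counting error only.

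Paracrine FGFs are secreted proteins that stay near the cell that makes them, because they bind heparan sulfate, and that signal through FGF receptor tyrosine kinases. The receptors recruit the adaptor FRS2 and switch on the RAS-RAF-MEK-ERK kinase cascade. ERK in turn raises transcription of the ETS factors Etv4 and Etv5 and of inhibitors that damp the same cascade, among them the Sprouty proteins and the ERK phosphatase DUSP6, which is why these transcripts are widely read as a measure of FGF signaling. Other growth factor receptors that use ERK raise them as well. The question put to these libraries is whether the targets differed along with Fgf9.

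The depth was 52950913 counts (wild-type) and 53216727 counts (Ucp1-KO). Ucp1 itself had 366473 and 37853 counts, a log2 ratio of -2.98, so the targeted transcript was much lower in the library labeled Ucp1-KO. All 13 brown adipocyte markers had counts in both libraries, Cidea 89838 and 102812. The libraries differed in other ways than the Ucp1 genotype. Mitochondrially encoded genes took 22.4% (wild-type) and 36.7% (Ucp1-KO) of all counts. Eif2s3y, Kdm5d, Uty and Ddx3y, 4 genes of the Y chromosome, were at 0 in the library labeled wild-type and summed to 5305 counts in the other, although both are described as male. Xist, transcribed from an inactive X chromosome, had 32380 (wild-type) and 16478 (Ucp1-KO) counts. The Ucp1-KO library thus held Y-linked and Xist transcripts together. Each of the 21 skeletal muscle markers was lower in Ucp1-KO by 2-fold or more, where 9.55% of all genes examined were. Their summed share went from 0.678% to 0.0822% of all counts. None of the 21 was at 0 in either library. Endothelial markers were lower as well, 11 of 12 beyond counting error, where 30.5% of all genes examined were. Their summed share was 0.260% in wild-type and 0.128% in Ucp1-KO, and none was at 0. The part that sex-linked, muscle and endothelial transcripts have in the differences below was not tested, and genotype cannot be told apart from them with 1 library each.

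Fgf9 was the member that differed most. It encodes a paracrine FGF that binds the IIIc splice forms of several FGF receptors. The wild-type library held 97 counts (95% Poisson interval 71.6 to 128) and the Ucp1-KO library 1286 (1188 to 1389). After scaling by median-of-ratios size factors these were 87.4 and 1427 normalized counts, with intervals that lay far apart. The log2 ratio, log2 of (Ucp1-KO + 0.5) over (wild-type + 0.5) normalized counts, was 4.02 (95% counting interval 3.61 to 4.48), a 16.2-fold higher level. In bulk tissue, more cells that make Fgf9 and more Fgf9 RNA per cell cannot be told apart. Of the genes examined, 0.427% had a higher log2 ratio than Fgf9.

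**Figure D1:**
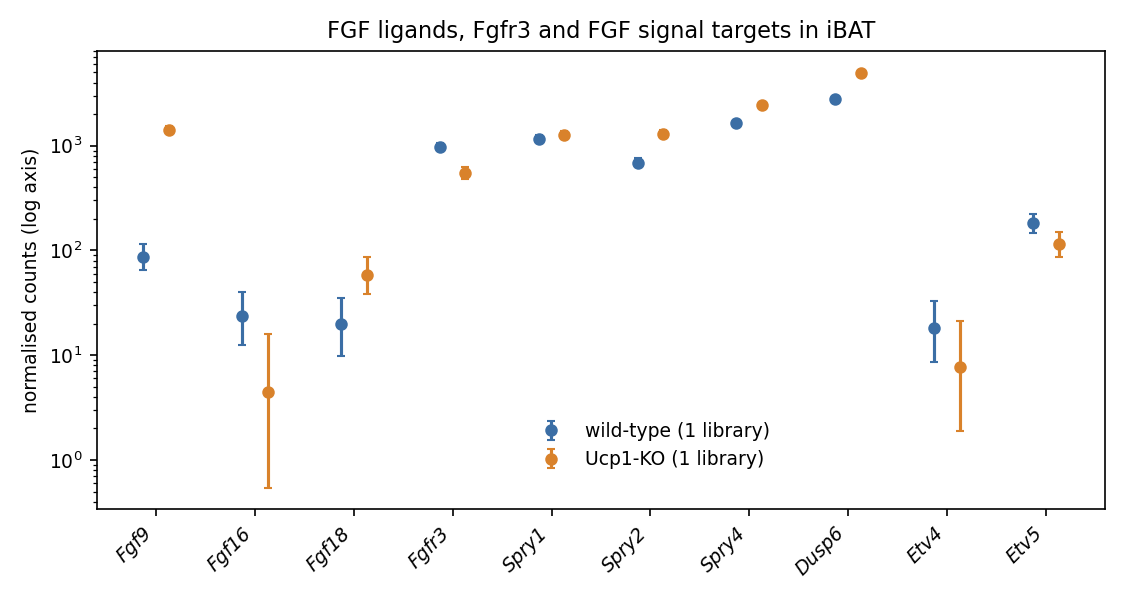
Normalized counts (log axis) of the 10 members in the wild-type (blue) and the Ucp1-KO (orange) library of iBAT. Points are single libraries and bars 95% Poisson intervals; Fgf9 went from 87.4 to 1427, while Spry1 was at 1165 and 1267.

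Both other ligands were weakly counted. Fgf18, a ligand of the FGF8 subfamily with known roles in skeletal and lung growth, gave 22 wild-type (11.0 to 39.4) and 53 Ucp1-KO counts (34.8 to 77.4). Its log2 ratio was 1.54 (0.51 to 2.73), a 2.92-fold higher level. Fgf16 is a close relative of Fgf9 and an X-linked gene. It gave 26 wild-type (13.8 to 44.5) and 4 Ucp1-KO counts (0.484 to 14.4), a log2 ratio of -2.28 (-5.59 to -0.26). With so few reads the direction was beyond counting error and the size was not resolved. The 3 ligands thus did not differ alike: Fgf9 exceeded Fgf18 by 2.48 on the log2 ratio (1.24 to 3.67) and Fgf16 by 6.30 (4.22 to 9.65).

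Fgf9 held a different place among the paracrine FGF transcripts in each library. Levels of different genes are compared per kb of exon. In wild-type the order was Fgf1 with 172 normalized counts per kb (160.2 to 184), Fgf10 with 51.6 (43.5 to 60.9), Fgf9 with 15.3 (11.3 to 20.3), Fgf16 with 14.1 (7.51 to 24.1), Fgf18 with 8.98 (4.48 to 16.1), Fgf7 with 7.79 (4.69 to 12.2) and Fgf2 with 4.48 (2.61 to 7.18). The steps from Fgf1 to Fgf10 and from Fgf10 to Fgf9 exceeded counting error, and from Fgf9 downward each ligand overlapped its neighbor. In Ucp1-KO Fgf9 stood first per kb with 250.2 normalized counts per kb (231 to 270.3), apart from all others by counting error. Fgf1 followed with 178 (164 to 191), then Fgf10 with 34.3 (27.1 to 43.0) and Fgf18 with 26.6 (17.5 to 38.9), whose intervals overlapped. Fgf9 made up 5.57% of the summed paracrine FGF level per kb in wild-type and 49.55% in Ucp1-KO. As a share of raw paracrine FGF counts it was 4.58% (exact binomial interval 3.40% to 6.01%) and 44.4% (41.8% to 47.0%). Fgf1 held 46.7% of the raw counts in Ucp1-KO (44.15% to 49.35%), an overlapping interval. The first place of Fgf9 thus rests on the exon lengths used, whose error the intervals do not hold.

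The remaining paracrine ligands gave the background for Fgf9. Fgf1, which can bind every FGF receptor, was the most abundant of them in both libraries and had a log2 ratio of 0.05 (-0.10 to 0.20), within counting error. Fgf10, a ligand of the IIIb form of Fgfr2 that acts on preadipocytes, was lower, at -0.59 (-1.01 to -0.18). Fgf2, a ligand with broad receptor binding, had 34 and 16 counts and a log2 ratio of -0.77 (-2.21 to 0.50), and Fgf7 had 38 and 25 counts and -0.30 (-1.46 to 0.80), neither beyond counting error. No count was listed in either library for Fgf22, Fgf8, Fgf5, Fgf4 or Fgf3, and a count of 0 allows up to 0.113 CPM, the level of 6 counts or 3 read pairs. Fgf6 had 6 and 0 counts, Fgf17 had 0 and 3, and Fgf20, the third ligand of the Fgf9 subfamily, had 0 and 4, all under that limit. Of the 15 paracrine ligands 7 were examined, of which 2 were higher and 2 lower beyond counting error, where 31.5% and 30.5% of all genes examined were. A listed 0 is not read as absence, since Sdhd, a respiratory chain gene chosen after its value was seen, was also at 0 in both libraries.

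**Figure D2:**
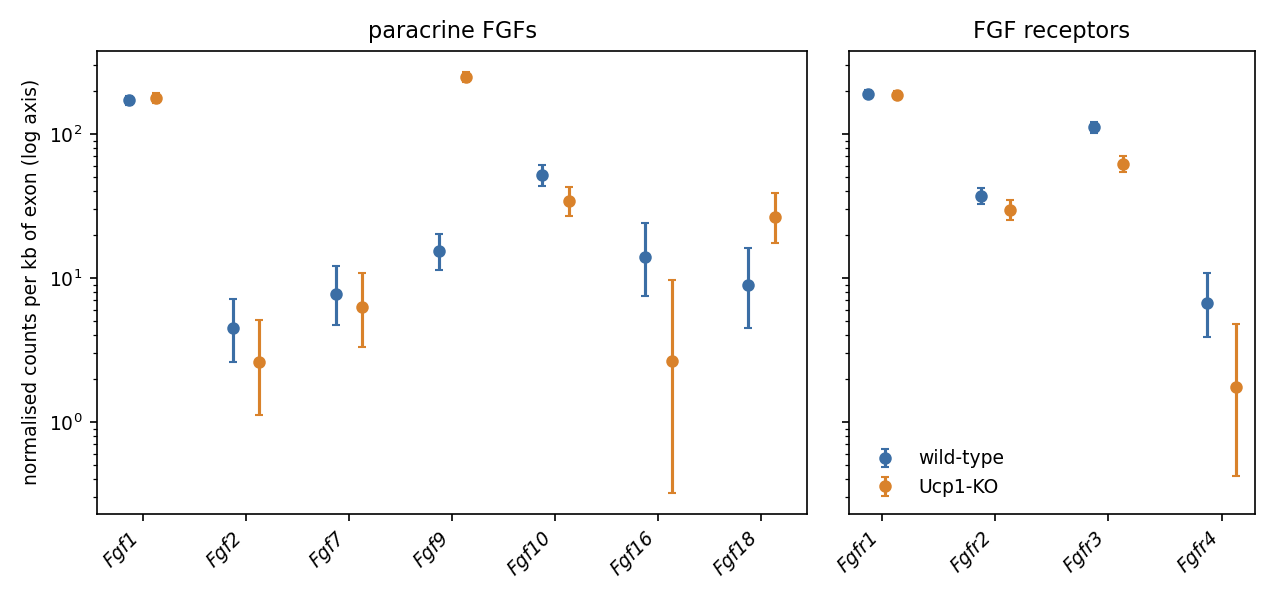
Normalized counts per kb of exon (log axis) for the 7 paracrine FGFs examined (left) and the 4 signaling FGF receptors (right), wild-type in blue and Ucp1-KO in orange. Points are single libraries and bars 95% Poisson intervals; Fgf9 passed Fgf1 in Ucp1-KO (250.2 against 178), while Fgfr1 was at 191 and 186.

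Fgf9 lies on chromosome 14 of GRCm39 from 58308004 to 58350316 on the plus strand, and the genes beside it were compared with it. Within 1.0 Mb of it the annotation places 16 other genes of the tables, all on its 5′ side, of which 12 were examined. Their log2 ratios lay between -0.34 (Ift88) and 0.86 (Gjb2, 16 and 24 counts), with a median of -0.05. None was at least 2-fold higher or lower, where 7.42% and 9.55% of all genes examined were. Beyond counting error 2 were lower, Ift88 (-0.66 to -0.03) and Lats2 (-0.29, -0.42 to -0.16), and 2 were higher, Xpo4 (0.32, 0.03 to 0.62) and Zdhhc20 (0.19, 0.04 to 0.34). Of all genes examined, 30.5% were lower and 31.5% higher by that rule. The nearest, Micu2, lies 71.2 kb away and was at -0.13 (-0.26 to 0.0025). Among the 11768 genes with a mean normalized count of at least 100, Fgf9 ranked 14 from the highest log2 ratio. By distance in log2 ratio over the 2 libraries, the genes most like it were Atf3 (4.58), Acot12 (4.32) and 1700047G03Rik (4.25) above it and Hpx (3.94), Cyp4a32 (3.91) and Rasef (3.85) below it. Atf3 encodes a stress-induced transcription factor, Acot12 an acyl-CoA thioesterase and Hpx the heme-binding protein hemopexin. Cyp4a32 is one of several near-identical Cyp4a genes, so its counts are uncertain.

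The RefSeq promoter windows of the members were searched for short motifs of factors that act downstream of growth factor and cyclic AMP signals. The 250 bases before each start were searched for 7 members in 9 windows, without Spry4, Fgf16 and Etv4. Each window matched GRCm39 exactly once. Of 9 motifs searched on both strands, 2 windows held a match. The ETS core CGGAAG, the letters bound by ETS factors such as Etv4 and Etv5, stood 62 to 57 bases before the Dusp6 start and was present in 13.6% of all 32851 promoter windows. The cyclic AMP response element (CRE) half-site TGACGT stood 64 to 59 bases before the RefSeq start of Fgf9 and was present in 6.47%. These were the only matches, and the 30 bases around each are shown with the motif in capitals, 5′ to 3′ on the plus strand.
Fgf9 (chr14:58310067-58310096): atccgtaaattcTGACGTagcccgagcatc
Dusp6 (chr10:99099019-99099048): cggcaacagcccCTTCCGcagcgcgctcat
The Dusp6 site carries the ETS letters on the minus strand and overlaps exons of the genes Gm56965 and Gm56968. The Fgf9 site lies within an exon of longer Fgf9 transcripts in GENCODE, downstream of their start. The windows of Fgf18 and Spry2 and a window of Etv5 also lie wholly within exons of their own genes. No window held the longer ETS consensus CCGGAAGT (2.88% of all windows), which contains the core, the full CRE TGACGTCA (1.55%), which contains the half-site, the AP-1 motif TGANTCA (6.75%), the composite ATF4 motif TGATGNAA (3.45%), the Egr motif GCGTGGGCG (0.536%), the TATA letters TATAAA (12.4%) or a CArG box (1.47%). A match describes letters only, and no binding was measured.

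Fgfr3 was lower in Ucp1-KO. It encodes a receptor that FGF9 binds well and lies on chromosome 5 from 33879018 to 33894412 on the plus strand. It gave 1089 wild-type and 496 Ucp1-KO counts, or 982 and 550 normalized counts, and its log2 ratio was -0.83 (-1.06 to -0.62). The ligand and this receptor thus differed in opposite directions, with 4.86 between their log2 ratios (4.39 to 5.38), a difference in which the library scaling cancels. Of the signaling receptors, Fgfr1 was the most abundant, with 191 normalized counts per kb in wild-type and 186 in Ucp1-KO, followed in both libraries by Fgfr3 (111 and 62.4), Fgfr2 (37.4 and 29.7) and Fgfr4 (6.72 and 1.76). Each step in that order exceeded the counting intervals. Fgfr1 had a log2 ratio of -0.04 (-0.15 to 0.08), Fgfr2 of -0.33 (-0.64 to -0.03) and Fgfr4, with 33 and 7 counts, of -1.87 (-4.14 to -0.24). The share of Fgfr3 in the summed receptor level per kb was 32.1% in wild-type and 22.3% in Ucp1-KO. Fgfrl1, a receptor without a kinase domain, was higher, at 0.34 (0.24 to 0.45), as was Klb, the co-receptor of endocrine FGFs, at 0.62 (0.44 to 0.79), while Kl had 4 and 2 counts.

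The Sprouty genes, which encode inhibitors of receptor signaling to RAS and ERK, were spread between no difference and nearly 2-fold. Spry2 (chromosome 14, 106128766 to 106136446, minus strand) gave 765 wild-type (690.2 to 846) and 1177 Ucp1-KO counts (1084 to 1276). The log2 ratio of Spry2 was 0.92 (0.73 to 1.11), a 1.89-fold higher level. Spry4 had 1844 and 2187 counts, or 1662 and 2426 normalized counts, and a log2 ratio of 0.55 (0.42 to 0.67). The gene of an antisense RNA that overlaps Spry4, 9630014M24Rik, had 29 and 36 counts, and reads shared between the genes were not tested for. Spry1 (chromosome 3, 37693897 to 37698755, plus strand) had 1292 and 1142 counts, or 1165 and 1267 normalized counts, and its log2 ratio of 0.12 (-0.04 to 0.29) was within counting error. That call for Spry1 rested on the processing: it was lower, at -0.19 (-0.35 to -0.02), with total counts, and higher, at 0.21 (0.04 to 0.37), with the reference genes or, at 0.12 (0.0055 to 0.24), with the interval on counts as deposited. Spry2 exceeded Spry1 by 0.80 (0.55 to 1.05) and Spry4 exceeded it by 0.42 (0.21 to 0.63) on the log2 ratio, so the 3 family members differed from each other by more than counting error.

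Dusp6 was higher by nearly the same amount as Spry2. It encodes the cytoplasmic phosphatase that switches off ERK and is the most abundant of the targets per kb, with 815.5 normalized counts per kb in wild-type and 1442 in Ucp1-KO. It gave 3068 wild-type (2916 to 3225) and 4409 Ucp1-KO counts (4227 to 4597), a log2 ratio of 0.82 (0.73 to 0.92) and a 1.77-fold higher level. The difference between Dusp6 and Spry2 was -0.10 (-0.31 to 0.11), within counting error, whereas Dusp6 exceeded Spry4 by 0.28 (0.12 to 0.44).

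The ETS factors lay on the other side of 0. Etv5 (chromosome 16, 22200052 to 22259662, minus strand) gave 202 wild-type (165 to 245) and 104 Ucp1-KO counts (77.7 to 136). The log2 ratio of Etv5 was -0.66 (-1.17 to -0.16). Etv4 (chromosome 11, 101660568 to 101676197, minus strand) had 20 and 7 counts and a log2 ratio of -1.16 (-3.50 to 0.65), which is not beyond counting error. Etv1, the third gene of this ETS subfamily and not a member, had 154 and 85 counts and -0.56 (-1.13 to 0.00088), also within counting error. Dusp6 exceeded Etv5 by 1.48 (0.97 to 2.00), Spry2 by 1.58 (1.04 to 2.13), Spry4 by 1.20 (0.69 to 1.73) and Spry1 by 0.78 (0.25 to 1.32), so Etv5 was apart from each of these 4 inhibitors by more than counting error.

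**Figure D3:**
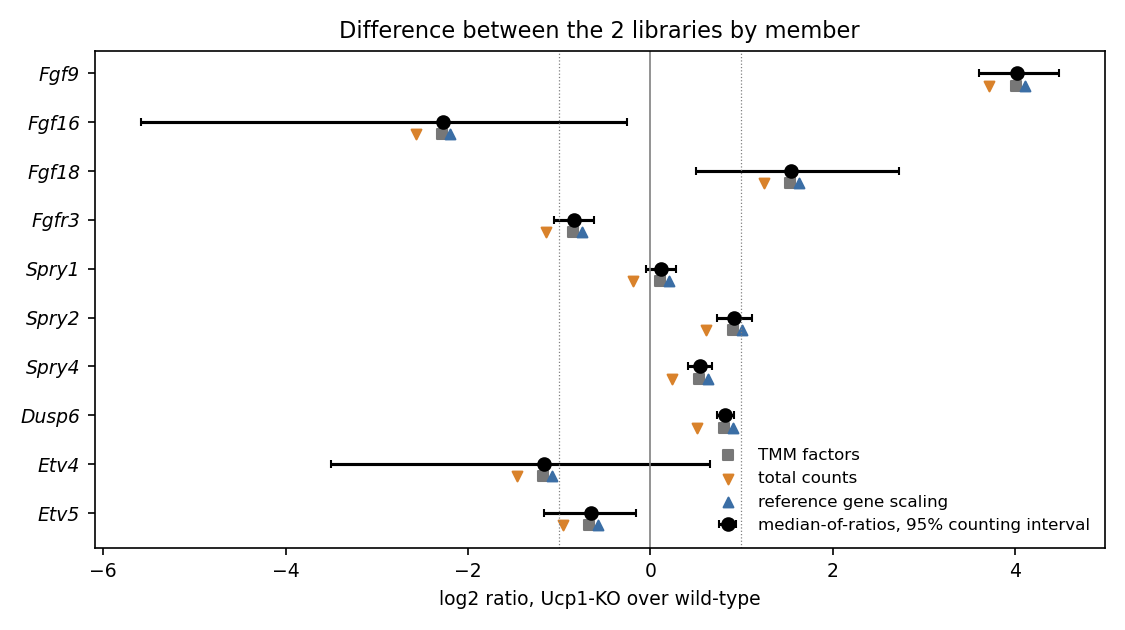
Log2 ratio of Ucp1-KO over wild-type for the 10 members. Black points carry 95% counting intervals with median-of-ratios scaling, and the other symbols give the ratio with TMM factors, total counts and the reference genes; dotted lines mark 2-fold. Fgf9 lies at 4.02, Dusp6 at 0.82 and Etv5 at -0.66, and total counts move each value left.

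The question of whether the targets differed along with Fgf9 can be put into counts. Of the 6 targets, 3 (Spry2, Spry4 and Dusp6) were higher beyond counting error, where 31.5% of all genes examined were, and 1 (Etv5) was lower, where 30.5% were. None of the 6 was at least 2-fold higher, where 7.42% of all genes examined were (with the reference genes Spry2 was, at 1.01), and 1 (Etv4) was at least 2-fold lower, where 9.55% were. Their median log2 ratio was 0.33, beside -0.0016 over all genes examined. Fgf9 exceeded the target nearest to it, Spry2, by 3.10 (2.65 to 3.61), Dusp6 by 3.20 (2.78 to 3.69) and Spry1 by 3.90 (3.46 to 4.41). Over all 10 members, 5 were higher and 3 lower beyond counting error, 2 (Fgf9 and Fgf18) were at least 2-fold higher and 2 (Fgf16 and Etv4) at least 2-fold lower. Because Fgf9 was chosen on this contrast, nothing is read from these shares. Of all genes past 2-fold, 43.7% were on the higher side with median-of-ratios factors and 24% with total counts, which moved the median of all genes to -0.31.

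**Figure D4:**
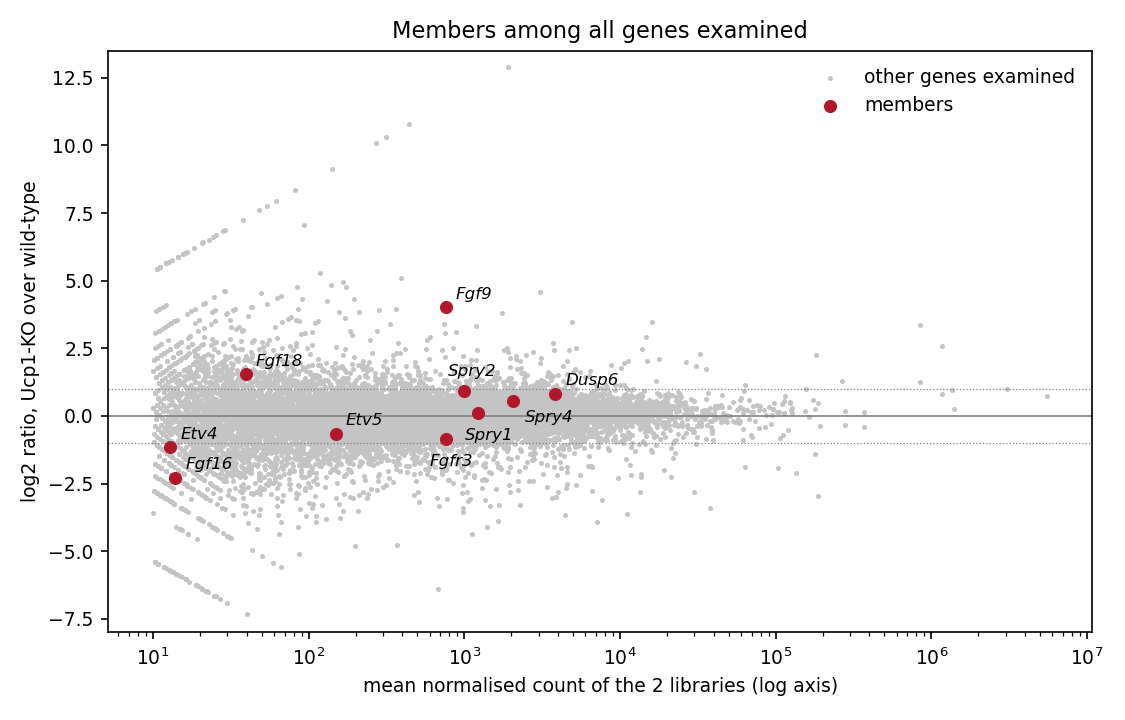
Log2 ratio of Ucp1-KO over wild-type against the mean normalized count (log axis) for the 15212 genes examined (grey) and the 10 members (red); dotted lines mark 2-fold. Fgf9 stands above the cloud at its level, whereas Spry1, Spry2, Spry4 and Dusp6 lie within it, and the outermost diagonal rows at the left are genes with 0 counts in one library.

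Other feedback inhibitors and targets of FGF to ERK signaling also lay on both sides of 0. Of 15 examined, 6 were higher and 3 lower beyond counting error (31.5% and 30.5% of all genes), with a median log2 ratio of -0.0012. Dusp5 and Dusp4, nuclear ERK phosphatases, were higher, at 1.16 (0.49 to 1.88) and 0.97 (0.80 to 1.14), and so was Phlda1, at 1.11 (0.84 to 1.38). Of the Sprouty-related inhibitors, Spred1 was at 0.35 (0.19 to 0.51), Spred3 at 0.68 (0.15 to 1.21) and Spred2 at -0.13 (-0.32 to 0.05). Il17rd, which encodes the FGF signaling inhibitor Sef, had 680 and 552 counts and a log2 ratio of -0.0012 (-0.24 to 0.23). Ccnd1, the G1 cyclin that growth factors raise, had 2062 and 764 counts and was more than 2-fold lower, at -1.13 (-1.31 to -0.96), and Errfi1, a feedback inhibitor of the EGF receptor, was at -0.85 (-0.96 to -0.74).

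The other dual-specificity MAP kinase phosphatases were compared with Dusp6. Of 8 examined, 5 were at least 2-fold higher and 1 lower, where 7.42% and 9.55% of all genes examined were, and the median log2 ratio was 1.29, or 0.74 with a minimum mean of 50. Dusp8, Dusp10 and Dusp16, which act mainly on the stress kinases JNK and p38, were at 1.83 (1.62 to 2.05), 1.41 (1.29 to 1.54) and 1.25 (1.11 to 1.39). Dusp2 and Dusp9 passed 2-fold with at most 21 counts and were within counting error. Dusp14 was lower, at -1.80 (-2.61 to -1.09), and Dusp1 was at 0.23 (0.12 to 0.33). Of 10 immediate early genes examined, which ERK and other stimuli switch on within minutes, 6 were higher and 1 lower beyond counting error (31.5% and 30.5% of all genes), with a median of 0.75. Myc had 244 and 703 counts (1.82, 1.53 to 2.14), Egr1 had 666 and 1890 (1.80, 1.62 to 1.99) and Fosb had 46 and 130 (1.79, 1.09 to 2.55), while Ier3 was lower (-0.70, -1.04 to -0.37).

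The steps between receptor and ERK lay close to 0. None of the 22 relay genes was 2-fold higher or lower, where 7.42% and 9.55% of all genes examined were, and the median log2 ratio was 0.0064. Beyond counting error 5 were higher and 7 lower, where 31.5% and 30.5% of all genes examined were. The log2 ratios furthest from 0 were those of Hras (-0.49, -0.61 to -0.37), Plcg1 (-0.48, -0.57 to -0.39) and Rps6ka1 (0.42, 0.11 to 0.73). The kinase Mapk3, which is ERK1, was at 1472 and 1208 normalized counts per kb and had a log2 ratio of -0.28 (-0.38 to -0.19). The adaptor Frs2 was at 0.11 (-0.02 to 0.25).

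Heparan sulfate, the co-factor of paracrine FGFs at the cell surface, was followed through its core proteins and enzymes. Of 12 core proteins and FGF-binding proteins examined, 7 were lower and 2 higher beyond counting error, where 30.5% and 31.5% of all genes were, with a median of -0.24. Fgfbp3, a secreted protein that carries FGFs, had 187 and 75 counts and a log2 ratio of -1.01 (-1.61 to -0.46). The glypican genes Gpc1 and Gpc4 differed in opposite directions, at -0.88 (-1.19 to -0.58) and 0.63 (0.44 to 0.83). Sdc4 and Hspg2, the most abundant per kb in both libraries, were at -0.15 (-0.20 to -0.09) and -0.50 (-0.53 to -0.46). Of the 14 synthesis and editing genes, 7 were lower and 4 higher beyond counting error, where 30.5% and 31.5% of all genes were. Of the 14, 3 were at least 2-fold lower, where 9.55% of all genes were. These were the sulfotransferases Hs3st3a1 (-1.73, -3.53 to -0.32), Hs6st2 (-1.72, -2.66 to -0.90) and Hs3st3b1 (-1.54, -2.13 to -0.998). The sulfotransferase Hs6st1, with 897 and 1213 counts, was higher (0.73, 0.56 to 0.91). The chain polymerase Ext1 was higher as well (0.73, 0.60 to 0.85). The sulfatase Sulf2, which trims the sulfate groups that FGFs bind, was lower (-0.88, -1.04 to -0.72). Endothelial markers had a median of -0.87 and their lowest values were those of Emcn (-1.39), Vwf (-1.05) and Erg (-0.998). Their part in the values was not tested.

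**Figure D5:**
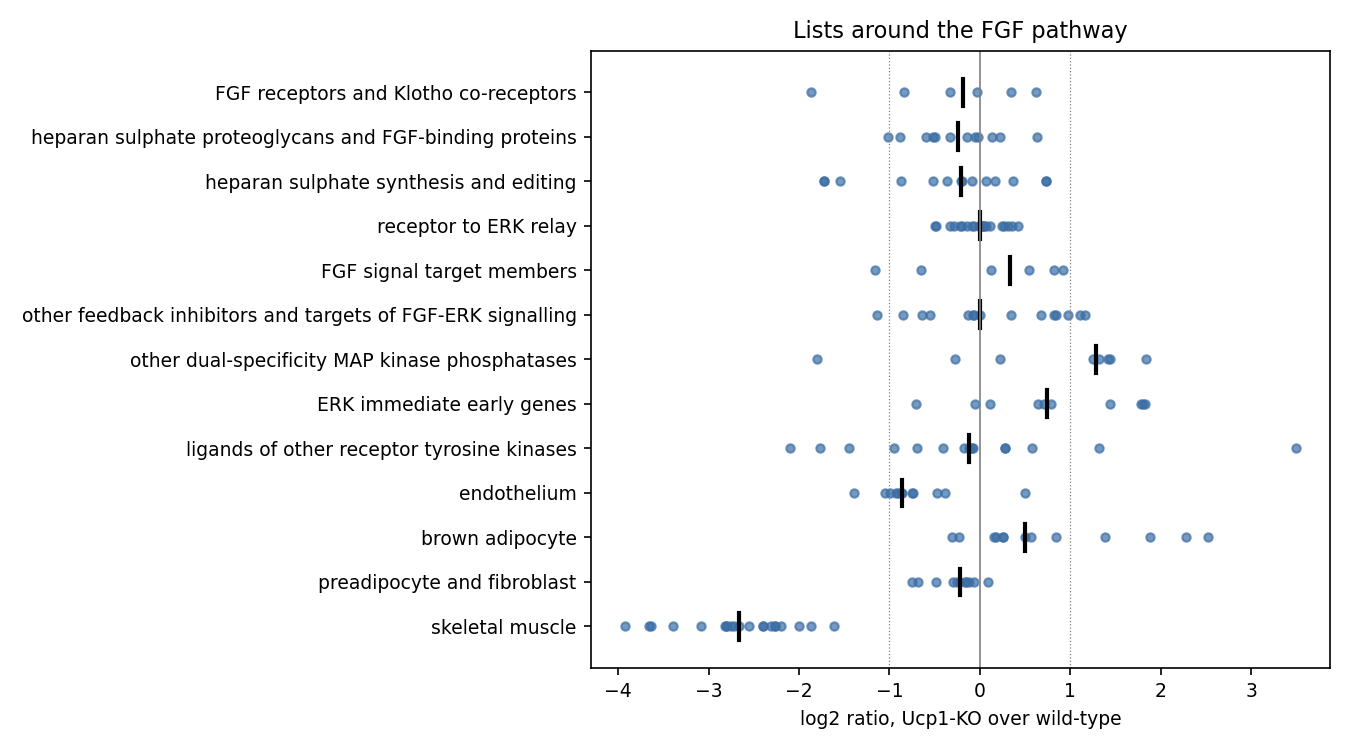
Log2 ratio of Ucp1-KO over wild-type for each gene examined (points) in lists around the FGF pathway and in 4 lists of cell type markers; black bars are list medians, the grey line is the median of all genes and dotted lines mark 2-fold. The 6 target members spread from -1.16 to 0.92, the 22 relay genes stay within 2-fold, and the 21 skeletal muscle markers lie between -3.92 and -1.62.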

How the data were processed

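RNA-seq of iBAT was deposited as 1 table per library. The deposited values are whole-number counts per gene, not normalized, that the authors made with featureCounts. Per the submitters' processing notes, Trim Galore, HISAT2 and build mm39 were used, and the labels describe strand-specific libraries after poly-A enrichment. Versions, annotation and settings for strand and multi-mapping reads were not given in the sources used here, so reads of overlapping or near-identical genes may be shared. All 27179 genes entered the library scaling, 1319 of them without a symbol.

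In R 4.3.3, DESeq2 1.42.0 gave size factors by the median of ratios (1.11 for wild-type, 0.901 for Ucp1-KO), by which counts were divided. A gene was examined if its mean normalized count reached 10, and the 2-fold rule was a log2 ratio of size 1 or more. Exact 95% intervals (Poisson for a count, Clopper-Pearson for a share or a ratio, conditional odds ratio for the difference between 2 genes) were computed on counts divided by 2, because 70.7% and 73.4% of counts from 1 to 10 were even, the pattern left when both mates of a pair are counted. A gene was higher or lower beyond counting error where its interval left out 0. The libraries carry no molecular identifiers, so reads are not independent molecules, and intervals do not hold the spread between animals.

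The members and lists were chosen with earlier results of these data known. Named were the members, the paracrine FGFs, receptors and Klotho genes; of other pathway lists, up to 3 genes with the largest log2 ratio in size and up to 3 with the highest level per kb; of marker lists, up to 3; the 3 genes above and below Fgf9; and Ucp1. Other genes (Cidea, Sdhd, Cd163, Gjb2, Ift88, Lats2, Xpo4, Zdhhc20, Micu2, 9630014M24Rik and further list genes such as Etv1, Il17rd and Frs2) were named after their values were seen. Positions and exon lengths are those of GENCODE mouse release 39 on GRCm39, joined by symbol, for 24919 of 25860 symbols. Promoter windows came from the RefSeq table (GRCm38.p6) and were placed on GRCm39 by exact match. Fgf16 and Etv4 had no entry, and member windows on chromosome 18, where Spry4 lies, were left out of the search. Alternatives were TMM factors (edgeR 4.0.16), total counts with and without mitochondrial genes, the reference genes Tbp, Hsp90ab1 and Gtf2b, other filters, a pseudocount of 5 and intervals on counts as deposited.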

Additional observations from a re-analysis of the deposited data

How the results depend on the processing

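With 1 library per genotype no replicate could be left out. No paired analysis was possible because there is only 1 library of either genotype. TMM factors, total counts without mitochondrially encoded genes and the reference genes left every member's log2 ratio within its counting interval. Intervals on counts as deposited change the interval only, so the ratio stays the same by construction. Spry1 passed counting error on the higher side with the reference genes (0.21) and with intervals on counts as deposited (0.12), and on the lower side with total counts. Total counts shifted all values down by construction, to -1.14 for Fgfr3, -0.19 for Spry1, 0.61 for Spry2, 0.24 for Spry4 and 0.52 for Dusp6, and the median of the 6 targets to 0.027, with the median of all genes at -0.31. The summed counts of the targets gave 0.63 in place of the median of 0.33, since Dusp6 and Spry4 hold most of the counts. The number of members at least 2-fold higher, 2, was 1 with a minimum mean of 50, 1 where the whole interval had to pass 2-fold and 4 with a 1.5-fold rule. The number at least 2-fold lower, 2, was 1 with a pseudocount of 5, 0 with a minimum mean of 50, 0 where the whole interval had to pass and 4 with a 1.5-fold rule. With the reference genes Spry2 also passed 2-fold, so 3 members were higher, and with total counts Fgfr3 did, so 3 were lower. The stricter rules take out Fgf16, Fgf18 and Etv4, whose low counts leave wide intervals. In all, 70 recomputed values for the members, the target median and the counts stayed within error or within 1.5 times and 14 did not. The 70 include each member's ratio with intervals on counts as deposited, which could not move.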

Other observations

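Ligands of other receptor tyrosine kinases can raise the same targets, and they were followed as a list. Of 16 examined, 7 were lower and 2 higher beyond counting error (30.5% and 31.5% of all genes), with a median log2 ratio of -0.11. Of the EGF receptor ligands, Egf had 134 and 25 counts (-2.10, -3.12 to -1.24), Hbegf had 190 and 45 (-1.77, -2.51 to -1.10) and Btc had 510 and 152 (-1.44, -1.84 to -1.07), while Tgfa was at -0.41 (-0.996 to 0.15). Hgf, the ligand of the Met receptor, had 2 and 23 counts (3.50, 1.05 to 9.25) and Csf1, the macrophage growth factor, had 827 and 1674 (1.32, 1.15 to 1.49). Kitl and Pdgfb, the most abundant per kb, were at -0.09 (-0.14 to -0.03) and -0.12 (-0.20 to -0.03).

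FGFs outside the paracrine group differed too. Fgf14, which acts inside cells on sodium channels, gave 163 and 16 counts, so that its log2 ratio was -3.01 (-4.31 to -2.003). The endocrine Fgf21 was listed at 0 in wild-type and had 98 counts in Ucp1-KO, and Fgf15 and Fgf23 were listed at 0 in both libraries. Fgf11 and Fgf13, with 56 and 25 and with 57 and 30 counts, were at -0.85 (-1.95 to 0.14) and -0.62 (-1.63 to 0.32).

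Of the cell type markers not described above, macrophage genes had a median log2 ratio of 0.12, with 4 of 10 higher beyond counting error (Trem2 1.92, Cd68 1.09, Lyz2 0.81 and Mrc1 0.25), 1 lower (Cd163 -0.47) and 5 within it. For this and the following lists, 31.5% of all genes examined were higher and 30.5% lower beyond counting error. Preadipocyte and fibroblast genes had a median of -0.22, with 10 of 11 lower beyond counting error (Dlk1 -0.75, Ly6a -0.68, Lum -0.49). Schwann cell and nerve genes had a median of -0.57, with 5 of 8 examined lower and 0 higher (Ngfr -1.18, Prx -0.65). Pericyte and smooth muscle genes had a median of -0.50, with 6 of 8 lower and 2 higher (Cnn1 1.85, Acta2 -1.02, Myh11 -0.76). Lymphocyte genes had a median of 0.09, with 1 of 9 examined lower (Cd4 -1.85) and 8 within counting error, among them Cd3e at 1.56 and Cd8a at 1.14. Brown adipocyte genes had a median of 0.49, with 10 of 13 higher and 2 lower (Elovl3 2.52, Dio2 2.28, Ppargc1a 1.89). The reference genes Tbp, Hsp90ab1 and Gtf2b were at -0.38, -0.10 and 0.21. The counts of Xist, 32380 and 16478, are described above with the Y-linked genes.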
